A study of Homo sapiens with 6 samples.

Results

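The genes described here are 10 members of the interleukin-6 (IL-6) and leukemia inhibitory factor (LIF) cytokine axis, taken by symbol from the 25545 genes with expression values in BT-549 cells. They comprise the ligands IL6, LIF, IL11 and CLCF1, the receptors IL6R, LIFR, OSMR and IL6ST, the transcription factor STAT3 and the feedback inhibitor SOCS3. BT-549 is a cell line established from a triple-negative breast cancer (TNBC), which lacks estrogen and progesterone receptors and ERBB2 amplification. Cells were transfected with a control siRNA (BT-549/CsiRNA) or an siRNA against the long noncoding RNA NEAT1 (BT-549/NEAT1siRNA) and taken for RNA-seq 48 h later, with 3 replicates of each. The labels describe triplicate cultures, and the titles also carry the prefix "tet-", although the treatment of every sample is given as siRNA. The data thus come from a single cell line, no added cytokine is described, and p-values measure the spread between these cultures. The study asked how silencing NEAT1, the scaffold RNA of nuclear paraspeckles, alters the transcriptome of these cells.

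The IL-6 family cytokines share the signaling receptor gp130, which is encoded by IL6ST. IL-6 and IL-11 first bind a receptor of their own and then recruit gp130 pairs, whereas LIF signals through LIFR with gp130, and CLCF1 through the CNTF receptor together with LIFR and gp130. OSMR pairs with gp130 for oncostatin M and with IL31RA for IL-31. Receptor-bound JAK kinases phosphorylate STAT3, and STAT3 induces SOCS3, which blocks gp130 and the JAKs. In breast cancer, the axis is known for autocrine IL-6 and STAT3 activity in basal and mesenchymal cells.

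Expression is given in TPM, a scale that divides reads by transcript length and by the library total, so that levels of different genes can be set side by side. In NEAT1siRNA vs CsiRNA cells, the targeted NEAT1 RNA was at 4.36, 2.96 and 2.73 TPM in place of 13.4, 7.68 and 10.8 TPM, so every NEAT1siRNA library was below every CsiRNA library. Reads recovered from the deposited values summed to between 15786928 and 20342845 per library. Of 10 epithelial and luminal markers, 8 were below 1 TPM in all 6 libraries, with ESR1 at 0 throughout and EPCAM at no more than 0.0301 TPM, and KRT18 and ERBB2 were the others. VIM, a mesenchymal marker, was at 859 to 1112 TPM. Of 6 leukocyte markers, 5 were below 1 TPM in every library, PTPRC reaching 0.0580 TPM at most and CD68, the exception, being at 23.2 to 29.2 TPM, and the 3 endothelial markers were all below 1 TPM. Libraries also differed along GC content. The deviation of a gene from its group mean followed the GC content of its transcripts most closely in NEAT1siRNA 1, with a rank correlation across genes of 0.67, and in NEAT1siRNA 2, with one of -0.72.

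**Figure D1:**
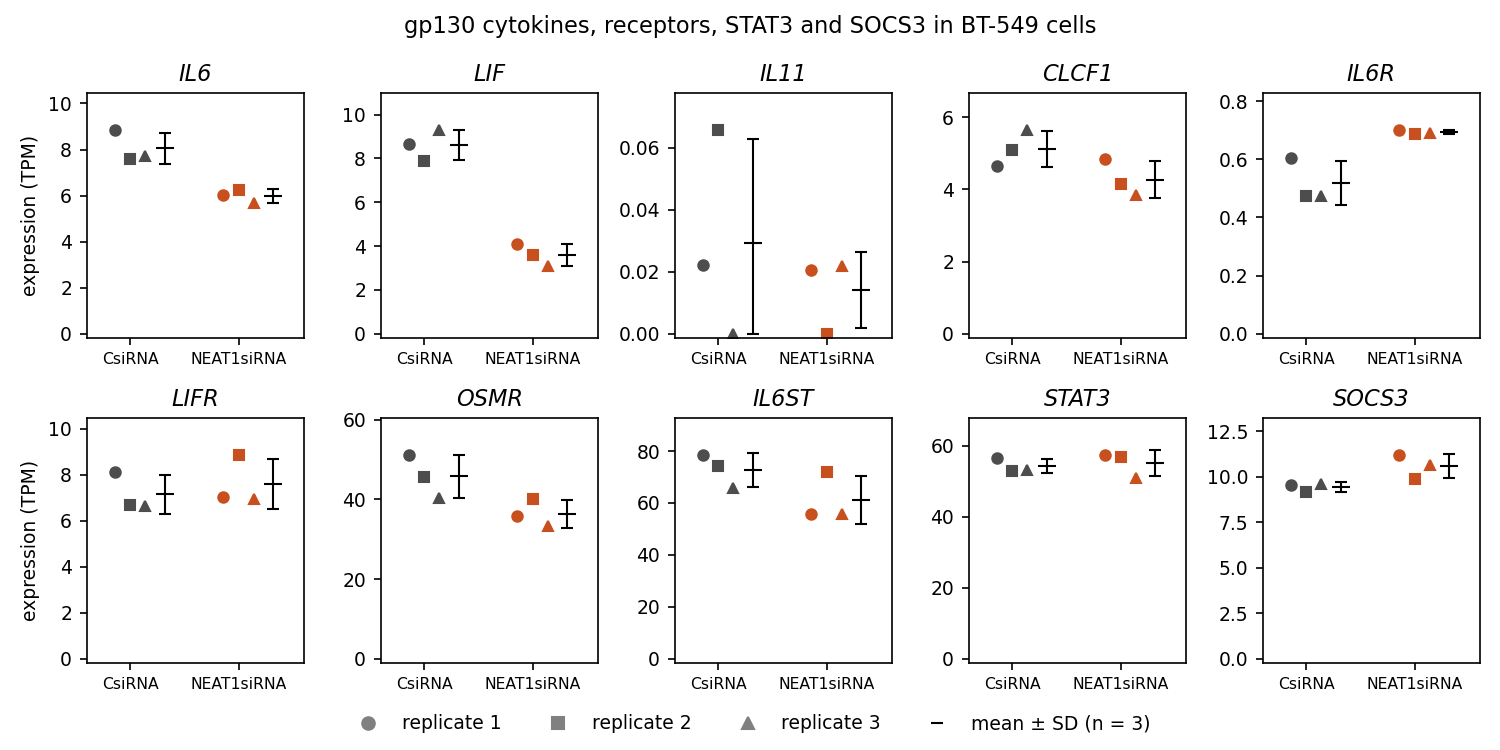
Expression in TPM (y axis, linear, own scale for each gene) of the 10 genes in the 3 CsiRNA and the 3 NEAT1siRNA libraries; points are libraries, and black bars are the mean ± SD (n = 3), with the lower bar of IL11 in CsiRNA ended at 0. All 3 NEAT1siRNA points of IL6, LIF and OSMR lie below the 3 CsiRNA points, those of IL6R and SOCS3 lie above them, and the points of IL11, CLCF1, LIFR, IL6ST and STAT3 overlap.

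Among the 10 genes, LIF, IL6 and OSMR were lower in NEAT1siRNA cells, and none was called higher at the mean level of at least 1 TPM that was needed for testing. Values were compared as log2(TPM + 1) with limma, with Benjamini-Hochberg adjustment over all 10721 genes tested and a threshold of 0.05. Adding 1 to TPM shrinks the limma fold changes of genes at a few TPM. Of the 10 genes, 8 reached the level for testing, and IL6R and IL11 did not. The 3 genes called lower compare with a background of 8.98% of all genes called lower, and the 0 called higher with 4.99% called higher, or 14% in either direction. The members were chosen with earlier results of these data known, so these and the following counts are a description. At an unadjusted p under 0.05, 5 of the 8 were lower and 0 higher, against 18.2% and 9.22% of all genes tested. The groups did not overlap for 4 of the 8 genes (IL6, LIF, OSMR and SOCS3), against 30.3% of all genes tested. The median log2 fold change was -0.24 over these 8 genes and -0.04 over all genes tested, and 5 of the 8 values were negative. A second fit used the recovered reads of all genes with a mean of at least 10 reads (limma-voom), and called 21.9% of 12716 genes. It called 4 members lower, adding IL6ST, and 1 member higher, IL6R, out of 9 tested, against 11.4% of all genes lower and 10.5% higher.

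By level, IL6ST, STAT3 and OSMR stood above the 4 ligands and the other members. In CsiRNA cells IL6ST was the highest at 72.8 ± 6.48 TPM (SD, n = 3), followed by STAT3 and OSMR, and the libraries of these neighbours in the order did not overlap. SOCS3, LIF, IL6 and LIFR came next, with means from 9.44 to 7.15 TPM, and each overlapped its neighbour in the order. CLCF1, IL6R and IL11 stood below them, apart from one another. In NEAT1siRNA cells LIF moved from the fifth to the eighth place, below LIFR and IL6 and overlapping with CLCF1, and the IL6ST libraries overlapped those of STAT3.

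LIF, the ligand that signals through LIFR and gp130, showed the largest change of the 8 genes tested. LIF was at 8.67, 7.91 and 9.29 TPM in CsiRNA cells, and at 4.12, 3.60 and 3.11 TPM in NEAT1siRNA cells. Every NEAT1siRNA library was thus below every CsiRNA library, and the NEAT1siRNA mean of 3.61 ± 0.503 TPM was 41.9% of the CsiRNA mean of 8.62 ± 0.693 TPM (SD, n = 3). The log2 fold change of log2(TPM + 1) was -1.06 (SE 0.10, 95% interval -1.27 to -0.86, limma adjusted p = 5.75e-08). Without the added 1, the log2 ratio of the group means was -1.26, and limma-voom gave a log2 fold change of -1.22. These values rested on 249 to 910 recovered reads per library. LIF remained past the threshold in all 19 other fits, with log2 fold changes from -1.24 to -0.99. LIF lies on the minus strand at chr22:30240453-30246759 (GRCh38), and the overlapping antisense gene LIF-AS1 was at 0.0593 TPM in CsiRNA and 0.0571 TPM in NEAT1siRNA cells. LIF-AS1 rested on a mean of 0.667 reads per library, too few to compare. LIF-AS2, which also overlaps LIF on the opposite strand, had no expression values under this name.

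IL6, the founding ligand of the family, is read from the plus strand at chr7:22725884-22732002 (GRCh38). IL6 was at 8.84, 7.61 and 7.71 TPM in CsiRNA cells, and at 6.02, 6.25 and 5.67 TPM in NEAT1siRNA cells, with no overlap between the groups. The mean fell from 8.05 ± 0.684 to 5.98 ± 0.291 TPM (SD, n = 3), or to 74.2% of the CsiRNA level. The log2 fold change was -0.37 (SE 0.09, 95% interval -0.57 to -0.18, limma adjusted p = 0.00885), on 111 to 185 recovered reads per library. The call was lost without CsiRNA 1 (limma adjusted p = 0.0680), without NEAT1siRNA 3 (0.0514) and with no filter on TPM (0.0690), and it held in the other 16 of 19 fits. STEAP1B, which overlaps IL6 on the opposite strand, was at 0.254 TPM in CsiRNA and 0.269 TPM in NEAT1siRNA cells. The antisense gene IL6-AS1 also overlaps IL6 and had no expression values under this name.

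The sequence before the IL6 start is shown because IL6 is a known NF-kB and C/EBP target and the genes for several of these factors are described below. The 250 bases before the RefSeq start (GRCh38.p14, chr7:22726950-22727199, plus strand), which lie within the longer gene span given above, are printed 5′ to 3′ with the matches to an NF-kB and a C/EBP motif in capitals.
IL6: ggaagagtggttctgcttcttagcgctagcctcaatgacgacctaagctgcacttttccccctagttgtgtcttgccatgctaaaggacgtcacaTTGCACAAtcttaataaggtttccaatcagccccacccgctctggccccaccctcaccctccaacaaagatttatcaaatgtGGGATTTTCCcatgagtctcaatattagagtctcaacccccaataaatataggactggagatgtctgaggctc
The motifs searched on both strands were NF-kB, C/EBP (TTGCNNAA), STAT (TTCNNNGAA), AP-1 (TGANTCA) and CRE (TGACGTNA). The NF-kB match spans bases -73 to -64 from the start, the C/EBP match spans -155 to -148, and the matches did not overlap. Among 35116 promoters of the same length in the RefSeq table, 5.21% held the NF-kB motif, 9.05% the C/EBP motif, 6.57% the STAT motif, 6.57% the AP-1 motif and 2.67% the CRE motif. RefSeq promoter entries were found for 8 of the 10 genes. IL11 held an AP-1 match (TGAGTCA, bases -96 to -90), LIFR held STAT matches before 2 of its 3 starts and a C/EBP match before 1 of them, and IL6R, IL6ST and STAT3 held none of the letters searched. The 2 SOCS3 windows (chr17:78360926-78361175 and chr17:78359668-78359917, minus strand) also held none. Neither covers the bases before the GENCODE start of SOCS3 at 78360077, so that stretch was not searched. These matches describe letters and not sites of binding.

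CLCF1 did not pass the threshold after adjustment, and IL11 had too few reads to be assessed. CLCF1, a neurotrophic cytokine of the family, was at 4.65, 5.10 and 5.64 TPM in CsiRNA cells and at 4.83, 4.14 and 3.85 TPM in NEAT1siRNA cells. NEAT1siRNA 1 lay within the CsiRNA range, and the log2 fold change of -0.22 did not pass the test (SE 0.10, 95% interval -0.42 to -0.01, limma adjusted p = 0.154). CLCF1 is overlapped on the opposite strand by RAD9A, at 3.30 TPM in CsiRNA and 2.79 TPM in NEAT1siRNA cells, and reads of overlapping genes cannot be told apart where counting ignores strand, which was not given for these values. The protein-coding gene ENSG00000256514 overlaps CLCF1 on the same strand, where strand cannot separate reads, and had no expression values under this name. IL11 was at 0.0222, 0.0657 and 0 TPM in CsiRNA cells and at 0.0206, 0 and 0.0220 TPM in NEAT1siRNA cells. IL11 was hence at no more than 3 reads in any library and at 6 reads in all, so a difference was not detectable at this depth.

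The ratio of LIF to IL6 within a library removes the library total from the comparison. It does not remove differences between libraries along GC content, which is 57.1% for LIF and 44.5% for IL6. This ratio was 0.980, 1.04 and 1.21 in CsiRNA cells and 0.684, 0.576 and 0.549 in NEAT1siRNA cells, a log2 change of -0.83 without overlap. LIF was thus lower relative to IL6 in each NEAT1siRNA library. The ratio of LIF to CLCF1 went from 1.86, 1.55 and 1.65 to 0.853, 0.870 and 0.808, a log2 change of -0.996, again without overlap. In an exact two-sided permutation test both ratios gave p = 0.1, which is the smallest value that 3 against 3 libraries can give, and 0.125 after adjustment over the 5 ratios compared. These 5 ratios were chosen after the values had been seen.

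**Figure D2:**
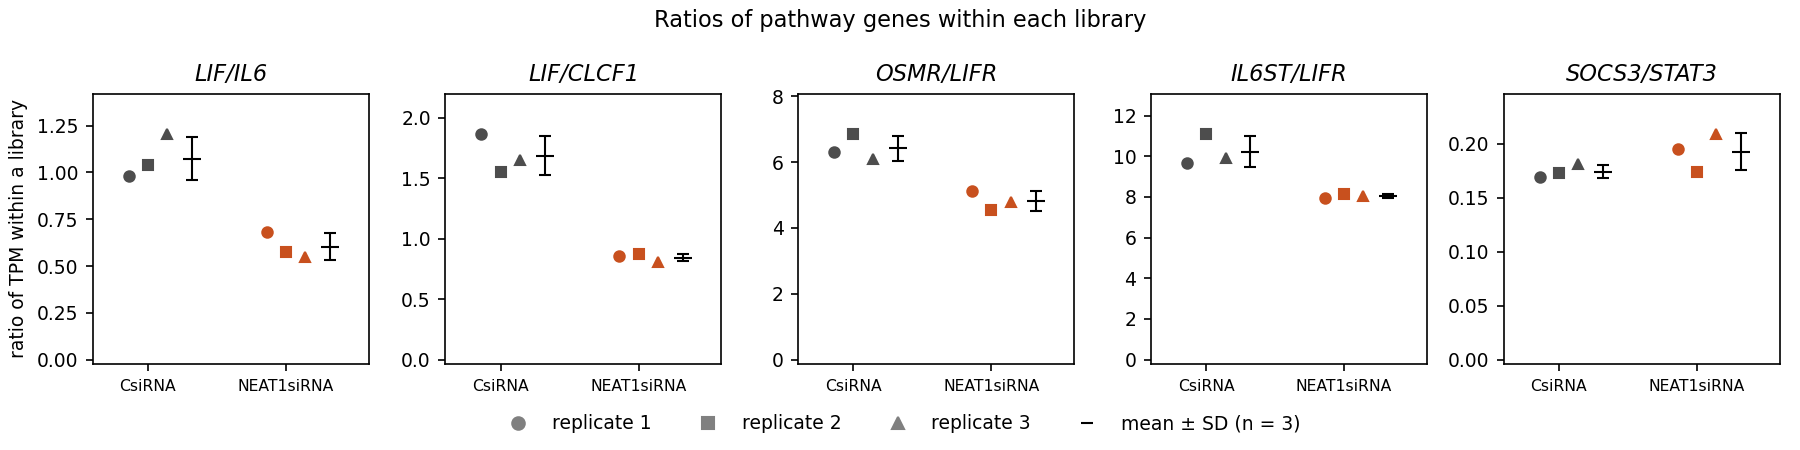
Ratio of TPM within a library (y axis, linear) for 5 pairs of genes in CsiRNA and NEAT1siRNA cells; points are libraries, and black bars are the mean ± SD (n = 3). The NEAT1siRNA points lie below all CsiRNA points for LIF/IL6, LIF/CLCF1, OSMR/LIFR and IL6ST/LIFR, and overlap them for SOCS3/STAT3.

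Of the receptors, OSMR was lower in NEAT1siRNA cells. OSMR, the receptor chain for oncostatin M and IL-31, was at 51.2, 45.8 and 40.4 TPM in CsiRNA cells, and at 35.9, 40.2 and 33.2 TPM in NEAT1siRNA cells. The groups came close but did not overlap, with NEAT1siRNA 2 just under CsiRNA 3. The mean fell from 45.8 ± 5.38 to 36.5 ± 3.54 TPM (SD, n = 3), or to 79.6% of the CsiRNA level. The log2 fold change was -0.32 (SE 0.10, 95% interval -0.52 to -0.11, limma adjusted p = 0.0324), on 4542 to 6952 recovered reads per library. The call was lost in 5 of 19 other fits, namely without CsiRNA 1 (0.227), without CsiRNA 2 (0.0709), without NEAT1siRNA 3 (0.187), and with a filter of 0.1 TPM (0.0718) or no filter (0.173), where the numbers are limma adjusted p. RICTOR, which overlaps the end of OSMR on the opposite strand, was at 11.0 TPM in CsiRNA and 10.0 TPM in NEAT1siRNA cells (limma adjusted p = 0.470).

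The 250 bases before the RefSeq start of OSMR (GRCh38.p14, chr5:38845762-38846011, plus strand) are shown as the other promoter entry among the genes called lower, with a C/EBP match in capitals at bases -73 to -66.
OSMR: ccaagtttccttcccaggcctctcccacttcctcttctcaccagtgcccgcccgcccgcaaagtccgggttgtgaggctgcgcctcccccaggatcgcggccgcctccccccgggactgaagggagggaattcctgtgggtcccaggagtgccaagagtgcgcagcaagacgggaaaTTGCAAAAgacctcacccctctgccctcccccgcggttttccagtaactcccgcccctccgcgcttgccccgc
Unlike the IL6 sequence, this stretch held no match to the NF-kB motif searched. Both held a C/EBP match, and neither held the STAT, AP-1 or CRE letters.

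IL6ST, which encodes gp130, had lower values in 2 of the 3 NEAT1siRNA libraries. IL6ST was at 78.5, 74.1 and 65.8 TPM in CsiRNA cells, and at 55.7, 72.0 and 55.7 TPM in NEAT1siRNA cells, where NEAT1siRNA 2 fell within the CsiRNA range. The log2 fold change of -0.26 did not pass the test (SE 0.10, 95% interval -0.47 to -0.04, limma adjusted p = 0.0981). IL6ST passed the threshold in 7 of 19 other fits. These included limma-voom on recovered reads (log2 fold change -0.22, adjusted p = 0.0404), the fit that removed trends along GC content and length (-0.24, limma adjusted p = 0.00275), and the fit without NEAT1siRNA 2 (-0.38, limma adjusted p = 0.000620). The 12 fits that did not pass included those without CsiRNA 1 (limma adjusted p = 0.373), NEAT1siRNA 3 (0.368), NEAT1siRNA 1 (0.261) and CsiRNA 2 (0.201). IL6ST had the lowest GC content of the 10 genes at 36.5%, and NEAT1siRNA 2 was the library in which low-GC genes stood highest. Whether GC content lay behind the IL6ST value in that library was not tested.

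LIFR, the signaling partner of gp130 for LIF, did not pass the test. LIFR was at 8.13, 6.68 and 6.63 TPM in CsiRNA cells and at 7.02, 8.86 and 6.93 TPM in NEAT1siRNA cells, and the groups overlapped. The log2 fold change was 0.08 (SE 0.10, 95% interval -0.14 to 0.29, limma adjusted p = 0.691), and without NEAT1siRNA 2 it was -0.03. LIFR was near IL6ST in GC content, at 37.1%, and was also highest in NEAT1siRNA 2. A link between GC content and the LIFR values was likewise not tested. Set against LIFR in the same library, IL6ST went from 9.66, 11.1 and 9.92 in CsiRNA to 7.94, 8.13 and 8.04 in NEAT1siRNA cells, a log2 change of -0.35 without overlap. OSMR relative to LIFR went from 6.30, 6.85 and 6.10 to 5.12, 4.54 and 4.79, a log2 change of -0.41 without overlap. OSMR is at 45.1% GC, so its ratio to LIFR does not remove differences between libraries along GC content. Both ratios gave p = 0.1 in the exact two-sided permutation test (0.125 adjusted over the 5 ratios).

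IL6R, the receptor that binds IL-6 before gp130, was the lowest of the 4 receptor genes. IL6R was at 0.606, 0.474 and 0.473 TPM in CsiRNA cells, and at 0.700, 0.688 and 0.689 TPM in NEAT1siRNA cells. All 3 NEAT1siRNA libraries were above the CsiRNA libraries, and the mean was 0.518 ± 0.0763 TPM in CsiRNA and 0.693 ± 0.00657 TPM in NEAT1siRNA cells (SD, n = 3). These values rested on 65 to 106 recovered reads per library. In the limma-voom fit to reads, which was added after the data had been seen so that IL6R had a test, the log2 fold change was 0.46 (SE 0.14, 95% interval 0.16 to 0.77, adjusted p = 0.0290). Since a pseudocount of 1 shrinks the change of a gene this low, the log2 fold change of log2(TPM + 1) was 0.16, and it did not pass the test with a filter of 0.1 TPM (limma adjusted p = 0.193) or with none (0.137).

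STAT3, the transcription factor downstream of gp130, was at 56.6, 52.9 and 53.2 TPM in CsiRNA cells and at 57.4, 56.8 and 50.9 TPM in NEAT1siRNA cells. The groups overlapped, and the log2 fold change was 0.02 (SE 0.09, 95% interval -0.16 to 0.20, limma adjusted p = 0.921). The interval leaves room for a fall or a rise of that size, and STAT3 protein and its phosphorylation were not measured in these data. SOCS3, the STAT3-induced inhibitor of gp130 signaling, was at 9.56, 9.14 and 9.62 TPM in CsiRNA cells and at 11.2, 9.91 and 10.6 TPM in NEAT1siRNA cells. All 3 NEAT1siRNA libraries were above the CsiRNA libraries, with means of 9.44 ± 0.263 and 10.6 ± 0.651 TPM (SD, n = 3). The log2 fold change of 0.15 did not pass the test (SE 0.09, 95% interval -0.04 to 0.34, limma adjusted p = 0.314). SOCS3 had the highest GC content of the 10 genes at 60.0%, and passed the threshold only in the 2 fits with the trend on GC content and length removed, with a log2 fold change of 0.19 in both and limma adjusted p of 0.0134 without and 0.0209 with the replicate number as a block. The ratio of SOCS3 to STAT3 was 0.169, 0.173 and 0.181 in CsiRNA and 0.195, 0.174 and 0.209 in NEAT1siRNA cells, which overlapped (exact two-sided permutation p = 0.2).

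**Figure D3:**
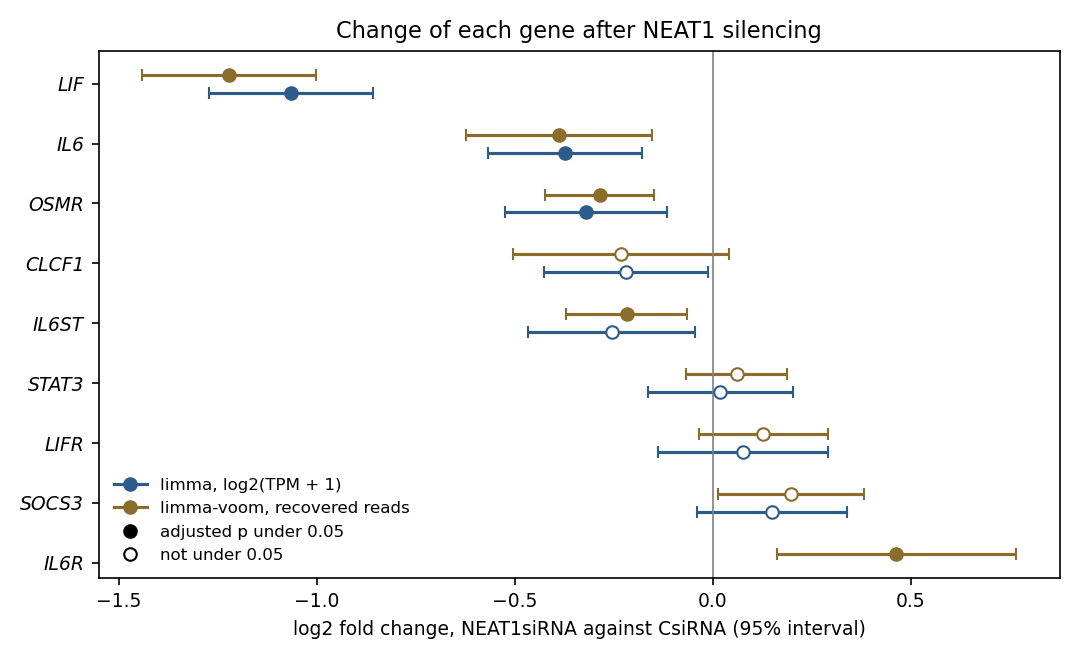
Log2 fold change in NEAT1siRNA vs CsiRNA cells (x axis) with its 95% interval for the 9 genes with a test, from limma on log2(TPM + 1) in blue and from limma-voom on recovered reads in brown; filled points have an adjusted p under 0.05. LIF, IL6 and OSMR are filled to the left of 0 in both fits, IL6ST only in the fit to reads, and IL6R, tested there alone, is filled to the right of 0.

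Beyond these 10 genes, other components of the pathway were counted in 6 lists of 93 genes in all, of which 76 were tested. Here 6 genes were higher and 11 lower at the limma threshold, and the median log2 fold change was -0.03, against -0.04 for all genes tested. In limma-voom, 9 were higher and 13 lower of 80 tested. Over all genes tested, limma called 4.99% higher and 8.98% lower, and limma-voom called 10.5% higher and 11.4% lower. Each list is described by its counts and was not set against other genes in a test.

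The list of other gp130 family ligands and receptors held 12 genes, of which 5 were tested, 1 was lower and the median log2 fold change was -0.05. The lower gene was IL12A, which encodes the p35 chain of IL-12 and IL-35. IL12A was at 2.61, 1.47 and 2.93 TPM in CsiRNA cells and at 1.08, 1.20 and 1.12 TPM in NEAT1siRNA cells, with no overlap (log2 fold change -0.62, SE 0.13, limma adjusted p = 0.00149). The call was lost in the fit with no filter on TPM (0.123) and held in the other 17 of 18 fits. IL12A is low enough that the pseudocount of 1 shrinks its limma fold change. Its NEAT1siRNA mean was 48.5% of the CsiRNA mean, and limma-voom gave a log2 fold change of -0.96 (adjusted p = 0.0152). The ligand genes OSM and IL27 had no read in any library, and CNTF had 1 read in all. EBI3 and the receptor gene IL12RB2, also in this list, had 6 and 2 reads in all. CTF1, which encodes cardiotrophin-1, averaged 1.33 TPM in CsiRNA and 1.51 TPM in NEAT1siRNA cells (limma adjusted p = 0.531). IL31RA, the partner of OSMR in the IL-31 receptor, averaged 5.12 and 4.59 TPM (0.418), and the IL-11 receptor gene IL11RA averaged 4.02 and 4.25 TPM (0.721).

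Of 15 genes for JAK kinases, other STATs and adaptors, 12 were tested, 1 was higher and 0 were lower, and the median log2 fold change was -0.00232. At an unadjusted p under 0.05 this limma count was also 1, and limma-voom called 2 higher and 0 lower. JAK1, the main kinase bound to gp130, averaged 81.1 ± 7.64 TPM in CsiRNA and 80.2 ± 6.39 TPM in NEAT1siRNA cells (SD, n = 3), a log2 fold change of -0.02 (limma adjusted p = 0.938). The gene called higher was GAB1, a docking adaptor, with 2.34, 2.12 and 2.15 TPM in CsiRNA and 2.68, 3.39 and 2.74 TPM in NEAT1siRNA cells (log2 fold change 0.29, SE 0.10, limma adjusted p = 0.0472). GAB1 passed the threshold in 10 of 18 other fits, and leaving out any 1 of CsiRNA 1, 2 or 3 or NEAT1siRNA 2 or 3 ended the call, as did 3 fits with another setting, with an adjusted p of up to 0.174 over all 18. The pseudocount also shrinks the limma value of GAB1, and its limma-voom log2 fold change was 0.45.

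The list of inhibitors of JAK-STAT signaling and of receptor sheddases held 16 genes, of which 12 were tested, 1 was higher and 0 were lower, with a median log2 fold change of 0.04. At an unadjusted p under 0.05 the limma count was again 1, and limma-voom called 1 higher and 0 lower of 14. PTPN1, a phosphatase that acts on JAK kinases, was at 34.2, 32.6 and 33.5 TPM in CsiRNA and at 42.1, 42.5 and 37.4 TPM in NEAT1siRNA cells (log2 fold change 0.27, SE 0.09, limma adjusted p = 0.0429). PTPN1 held in 12 of 19 other fits, and leaving out any library but NEAT1siRNA 3 ended the call, with an adjusted p of up to 0.172 over all 19. ADAM17, a sheddase of IL6R, averaged 24.8 TPM in CsiRNA and 22.3 TPM in NEAT1siRNA cells (limma adjusted p = 0.326). SOCS1 was below the level for testing, with 0.603 TPM on average in CsiRNA and 0.754 TPM in NEAT1siRNA cells.

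Genes that STAT3 is known to induce went in both directions. Of 25 such genes, 23 were tested, 3 were higher and 4 were lower, and the median log2 fold change was 0.02. Limma-voom called 5 higher and 6 lower of 24. The higher genes were BCL3, an atypical IκB protein, with a log2 fold change of 0.44 (limma adjusted p = 0.00409), the survival kinase gene PIM1 with 0.41 (0.00416) and MUC1, a transmembrane mucin, with 0.33 (0.0399). PIM1 was at 5.34, 6.37 and 5.77 TPM in CsiRNA and at 8.18, 7.95 and 8.02 TPM in NEAT1siRNA cells. MUC1 was at 18.3, 13.5 and 17.5 TPM in CsiRNA and at 22.4, 21.0 and 18.9 TPM in NEAT1siRNA cells, and its call was lost without CsiRNA 2 and without NEAT1siRNA 1, among 4 of 19 fits, with an adjusted p of up to 0.333. The lower genes were CCND1, which encodes cyclin D1, with a log2 fold change of -0.73 (limma adjusted p = 8.54e-06), the adhesion molecule gene ICAM1 with -0.55 (0.000148), MYC with -0.43 (0.00197), and FOSL2, a Fos family member, with -0.39 (0.00553). CCND1 was at 15.3, 14.8 and 14.9 TPM in CsiRNA and at 8.46, 9.72 and 7.82 TPM in NEAT1siRNA cells. Which signals lay behind the changes in this list, higher or lower, was not tested. CCND1, ICAM1, MYC and PIM1 held in all 19 other fits. BCL3 lost its call with no filter on TPM (0.0839), and FOSL2 in that fit and without CsiRNA 1 (up to 0.0566).

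The list of factors known to induce IL6 or LIF transcription held 15 genes, of which 14 were tested. Limma called 6 lower and 1 higher, against 8.98% and 4.99% of all genes tested. This list, like the others, was chosen with earlier results of these data known, so the counts are a description and not a test of enrichment. The median log2 fold change was -0.10. Limma-voom called 6 lower and 3 higher of 15. The lower genes belong to the NF-kB and AP-1 families. FOSL1, an AP-1 subunit, was at 69.8, 63.4 and 68.0 TPM in CsiRNA and at 34.6, 34.7 and 32.9 TPM in NEAT1siRNA cells (log2 fold change -0.96, SE 0.09, limma adjusted p = 3.46e-08). NFKBIZ, which encodes the IκBζ coactivator of IL6, was at 12.4, 9.85 and 10.7 TPM in CsiRNA and at 6.79, 7.08 and 5.69 TPM in NEAT1siRNA cells (log2 fold change -0.67, SE 0.10, limma adjusted p = 7.02e-05). The 3 NEAT1siRNA libraries of both genes were below the CsiRNA libraries. JUN fell by 0.48 on the log2 scale (limma adjusted p = 0.00116), NFKB2 by 0.48 (0.00142), NFKB1 by 0.41 (0.00564) and RELB by 0.31 (0.0257).

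Within this list, RELA, REL and JUND did not pass the test. RELA, which encodes NF-kB p65, averaged 37.5 ± 2.12 TPM in CsiRNA and 34.5 ± 2.60 TPM in NEAT1siRNA cells (SD, n = 3), with a log2 fold change of -0.12 (limma adjusted p = 0.438). REL had one of 0.04 (0.827) and the AP-1 gene JUND one of 0.05 (0.747). CEBPB, the C/EBP factor first described as a nuclear factor for IL6, was at 30.2, 27.5 and 27.6 TPM in CsiRNA and at 36.1, 35.9 and 31.2 TPM in NEAT1siRNA cells. It lay above the CsiRNA libraries in all 3 NEAT1siRNA libraries, with a log2 fold change of 0.27 (limma adjusted p = 0.0561, limma-voom 0.00303). The gene called higher was ATF2, with a log2 fold change of 0.35 (limma adjusted p = 0.0345). The calls of FOSL1, NFKBIZ and JUN held in all 19 other fits. That of NFKB2 was lost in 1 and that of NFKB1 in 2 of them, the latter also without CsiRNA 1, with an adjusted p of up to 0.0816. RELB was lost in 4 (up to 0.122), among them the fits without CsiRNA 1, CsiRNA 3 or NEAT1siRNA 3, and ATF2 in 5 (up to 0.233), among them those without CsiRNA 3, NEAT1siRNA 2 or NEAT1siRNA 3.

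Of 13 genes for factors that bind IL6 mRNA and set its stability, 12 were tested and 0 were called in either direction by limma, with 0 at an unadjusted p under 0.05. Limma-voom also called 0 of 13, with 3 at an unadjusted p under 0.05. The median log2 fold change was -0.08, and 9 of 12 values were negative. ZC3H12A, which encodes the Regnase-1 nuclease that degrades IL6 mRNA, averaged 2.37 TPM in CsiRNA and 1.99 TPM in NEAT1siRNA cells (limma adjusted p = 0.303), and ZFP36, which encodes tristetraprolin, averaged 17.9 and 16.8 TPM (0.598).

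**Figure D4:**
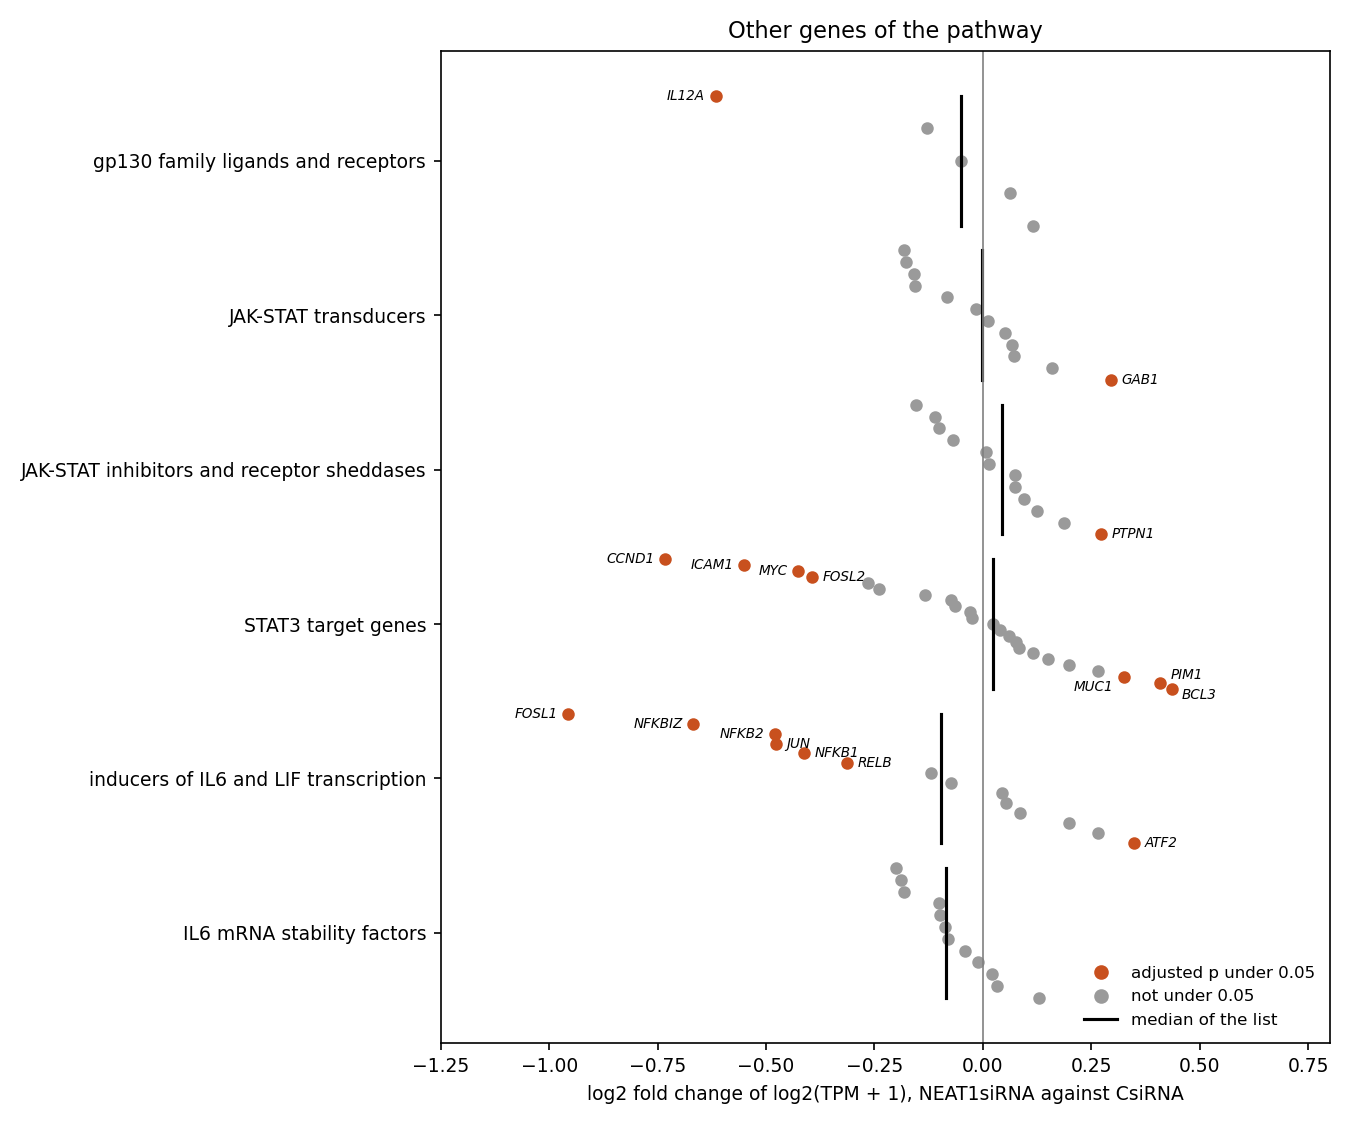
Log2 fold change of log2(TPM + 1) in NEAT1siRNA vs CsiRNA cells (x axis) for each tested gene of the 6 pathway lists (rows); orange points with a name have a limma adjusted p under 0.05, grey points do not, and black lines are list medians. The list of inducers of IL6 and LIF transcription has 6 orange points left of 0 and 1 right of it, and the list of mRNA stability factors has none.

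Across the 6 libraries, the log2(TPM + 1) profiles of IL6 and LIF had a Pearson correlation of 0.94, as a description of points that share libraries and a group difference. Among the genes tested by limma, LIF ranked 789 in likeness to IL6, and IL6 ranked 435 in likeness to LIF. By the same measure the genes most like IL6 included DHX33, an RNA helicase, and PPP4R1L, at 0.998 and 0.997. Those most like LIF were SPRY4, an inhibitor of receptor tyrosine kinase signaling, GPATCH4 and SLC25A44, at 0.998, 0.995 and 0.994. DHX33 averaged 22.6 TPM in CsiRNA and 16.7 TPM in NEAT1siRNA cells, and SPRY4 averaged 4.39 and 2.66 TPM. Among the members, OSMR came next to LIF in likeness to IL6 at 0.92, at rank 1056 among the genes tested, whereas SOCS3 ran opposite to IL6 at -0.78 and to LIF at -0.74.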

How the data were processed

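RNA-seq was analyzed in BT-549 cells with CsiRNA or NEAT1siRNA, 3 libraries each. The libraries were made with a stranded mRNA kit. The submitters' processing notes name STAR, DESeq2 and GRCh38, and how the authors computed TPM, or used strand in counting, is not given in the sources used here. The deposited TPM are the authors' values per gene and library, for 25545 genes. The authors' comparison table gives a mean normalized count per gene (a signal pooled over the 6 libraries), which was used to recover reads. Its log2 fold changes, standard errors and p-values were not used.

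TPM were transformed to log2(TPM + 1), genes with a mean of at least 1 TPM were kept, and groups were compared with limma 3.58.1 (lmFit, eBayes with trend) in R 4.3.3, two-sided, with Benjamini-Hochberg adjustment and a threshold of 0.05. A count test could not be the main test since the values are TPM. Scaling each gene by its mean normalized count recovered whole reads, within 0.05, for 99.8% of values at a mean count below 5, 98.6% from 5 to 50, 70.5% from 50 to 500 and 12.6% above, so reads of highly expressed genes are approximate. A set of 4 short RNAs (RN7SK, RN7SL1, RN7SL2 and RPPH1) took 64.4% to 68.1% of TPM. Intervals at 95% and counts cover the spread between libraries or counting error only. Symbols were matched to the RefSeq gene table (22278 current, 779 older, 2488 unmatched), coordinates came from the GENCODE annotation of GRCh38, and promoters from RefSeq (GRCh38.p14).

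The members and lists were chosen with earlier results of these data known. Genes named are the members, NEAT1, every listed gene past the threshold, listed genes that show a role, and the 3 genes most correlated with IL6 and with LIF. The results of 2 genes under this rule are not reported here. Alternatives were pseudocount 0.1, filters of 0.1 or 5 TPM or none, quantile normalization, median centring, the replicate number as a block, eBayes without trend, rescaling without the 4 short RNAs, removal of a GC and length trend (splines with 4 degrees of freedom), both together, limma-voom with TMM factors on recovered reads, leaving out each library, an adjusted p under 0.01, and a minimum log2 fold change of 0.5 in size. Limma-voom on genes with a mean of at least 10 reads was added after seeing the data. The procedure was also run on simulated libraries. These held no differences along GC content, so that run does not cover the GC differences between the real libraries. Tables and figures were made with Python 3.11.15, pandas 2.3.3, numpy 2.4.6, matplotlib 3.10.9 and scipy 1.17.1.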

Additional observations from a re-analysis of the deposited data

How the results depend on the processing

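LIF kept its direction and its call in all 19 other fits, IL6 in 16 and OSMR in 14, and no member that was called changed direction. The number of members called, 3 in the reported fit, was 5 with the GC and length trend removed, 5 with the replicate block and that trend removed together, 5 with limma-voom at a mean of at least 10 reads, 1 with no filter on TPM, 1 with a minimum log2 fold change of 0.5 in size, and 1 to 4 on leaving out single libraries, with 1 without CsiRNA 1 or without NEAT1siRNA 3. The number of all genes called, 1498 in the reported fit, was 3438, 3410, 2784, 505 and 314 under the first 5 of these, 2499 with limma-voom on the genes of the reported fit, 719 at an adjusted p under 0.01, and 759 (without CsiRNA 1) to 2083 on leaving out single libraries. The number of list genes called, 17 in the reported fit, was 32 with the GC and length trend removed, 31 with the replicate block as well, 7 with no filter and 5 with the minimum log2 fold change, and 12 to 17 on leaving out single libraries. Fewer libraries or more low genes tested enter some of these counts by construction, and otherwise the cause was not tested. Scaling moved the split of calls, from 535 higher and 963 lower to 1082 and 1109 under quantile normalization and to 1158 and 954 with median centring, and the median log2 fold change of all genes lay between -0.08 and 0.01. LIFR and STAT3, never called, changed sign on leaving out single libraries.

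The replicate block alone called 1640 genes, 3 members (IL6, LIF and OSMR) and 18 list genes. It ended the call of GAB1 (limma adjusted p = 0.0528), which left 0 of the JAK-STAT transducers called, and no other call of a list gene. Deviations from the group means correlated at -0.03, 0.25 and -0.11 between libraries of the same number, so the numbers were not taken to pair the samples. Depth limits IL11, at 6 reads in all, and leaves IL6R on 65 to 106 reads per library.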
